A study of Mus musculus with 9 samples.

Results

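The cytosolic and mitochondrial heat shock chaperones were followed through 10 genes of the 55335 in the deposited table, measured in the BV2 line of immortalised mouse microglia. The genes were taken by symbol: Hspa1a, Hspa1b, Hspa8 and Hsph1 of the HSP70 and HSP110 families, Hsp90aa1 and Hsp90ab1 of the HSP90 family, the HSP40 gene Dnajb1, the mitochondrial chaperonin genes Hspd1 and Hspe1, and the transcription factor gene Hsf1. RNA-seq was available for 9 libraries in 3 groups of 3, all from cells tagged WT. Control libraries are labelled 0 h, hypoxia libraries 24 h in 1% oxygen, and ethanolamine libraries 24 h in 1% oxygen with 100 µM ethanolamine, a small amino alcohol from which phosphatidylethanolamine is built. The treatment tag of the controls speaks of adipogenic differentiation, whereas their titles and the stated design make them plain controls, so groups were read from the titles. Control and hypoxia libraries differ in labelled time as well as in oxygen, and these cannot be told apart. The labels do not state whether replicates are separate cultures; the spread behind each p-value is that between libraries and may be technical.

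Heat shock proteins bind unfolded stretches of other proteins and release them in cycles of ATP binding and hydrolysis. HSP70 proteins receive clients from J-domain partners such as DNAJB1, exchange nucleotide with the help of HSP110, and pass many clients on to HSP90, which completes the folding of kinases and steroid receptors. Inside mitochondria, HSP60 (Hspd1) forms a folding chamber closed by a lid of HSP10 (Hspe1). HSF1 is the factor that binds heat shock elements, inverted repeats of GAA, in the promoters of stress-inducible chaperone genes; among the family, Hspa8 and Hsp90ab1 are known as the constitutive forms, and Hspa1a, Hspa1b and Hsp90aa1 as the more inducible ones.

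Promoter windows of 300 bases, from 250 bases before to 50 after the annotated start, were available for 6 of the 10 genes (RefSeq sequences, build GRCm38.p6; 9 windows in all). Heat shock element letters were searched on both strands as GAANNTTC and TTCNNGAA, which occur in 7.86% and 8.52% of all 32851 windows, and as the longer GAANNTTCNNGAA, which contains both and occurs in 0.603%. Of the 6 genes, 5 had at least 1 match to a short form and 3, Hspd1, Hspe1 and Hsph1, had the longer form. These counts are of genes, some with more than 1 window, whereas the shares are of windows. The genes are also not independent. Hspd1 matched only in a second window that overlaps the Hspe1 window, and the Hspa1a and Hspa1b windows are nearly identical. The windows shown range from an unbroken run of repeats (Hspe1) to no match with these exact letters (Dnajb1). They were also picked with the levels known: Hspe1 and Hsph1 fell in hypoxia, Dnajb1 rose and Hspa1a was too low to be tested. Whether the letters relate to the levels was not tested. The windows are written 5′ to 3′ on the gene's own strand, with heat shock element matches in capitals. They come from chr1:55087898-55088197 on the plus strand (Hspe1), chr5:149636287-149636586 on the minus strand (Hsph1), chr17:34972107-34972406 on the minus strand (Hspa1a) and chr8:83607925-83608224 on the plus strand (Dnajb1).
Hspe1: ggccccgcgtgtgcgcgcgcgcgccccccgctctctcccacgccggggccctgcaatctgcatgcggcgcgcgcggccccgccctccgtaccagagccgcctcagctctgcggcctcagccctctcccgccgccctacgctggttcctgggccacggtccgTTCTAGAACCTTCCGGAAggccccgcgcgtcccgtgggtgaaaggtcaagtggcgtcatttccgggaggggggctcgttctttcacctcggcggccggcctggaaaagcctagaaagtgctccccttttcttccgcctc
Hsph1: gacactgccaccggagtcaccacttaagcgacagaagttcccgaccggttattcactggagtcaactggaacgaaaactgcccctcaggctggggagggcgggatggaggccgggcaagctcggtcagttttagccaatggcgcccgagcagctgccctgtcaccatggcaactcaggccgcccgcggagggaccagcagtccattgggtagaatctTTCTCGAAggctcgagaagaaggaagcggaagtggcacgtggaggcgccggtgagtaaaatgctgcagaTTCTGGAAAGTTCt
Hspa1a: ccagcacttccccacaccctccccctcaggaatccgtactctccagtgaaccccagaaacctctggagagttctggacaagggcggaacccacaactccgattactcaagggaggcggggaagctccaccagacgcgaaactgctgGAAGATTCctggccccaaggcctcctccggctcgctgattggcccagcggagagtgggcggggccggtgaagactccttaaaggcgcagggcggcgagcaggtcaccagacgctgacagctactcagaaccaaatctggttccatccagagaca
Dnajb1: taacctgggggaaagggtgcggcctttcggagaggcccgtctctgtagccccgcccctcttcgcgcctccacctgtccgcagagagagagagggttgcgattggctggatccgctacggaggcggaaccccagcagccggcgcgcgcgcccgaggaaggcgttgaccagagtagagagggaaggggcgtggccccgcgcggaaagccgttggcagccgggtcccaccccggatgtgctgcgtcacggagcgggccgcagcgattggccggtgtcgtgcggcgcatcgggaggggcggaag

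The capitals in the Hspe1 window form the run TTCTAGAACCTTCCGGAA at chr1:55088059-55088076, whose first base lies at position -89 from the start. Hspe1 and Hspd1 are transcribed head to head, and a second window of Hspd1 shares 285 bases with the Hspe1 window, including this run. That Hspd1 window (chr1:55087883-55088182) lies wholly inside the annotated gene (chr1:55077835-55088243). For Hspd1 the run is therefore downstream of the first base of the annotated gene. The other Hspd1 window held no heat shock element match. A run of this form, TTCNNGAANNTTCNNGAA, was found in 5 of the 32851 windows (0.0152%), those of Hspd1, Hspe1, Arpc2, Chordc1 and Fam149a. The windows of Hspa1a and Hspa1b differed at 4 of 300 positions (98.7% identical), and both held GAANNTTC at position -104 and CCAAT, the letters bound by NF-Y, at -67. CCAAT occurs on either strand in 37.4% of all windows. In Hsph1 the longer form began at position 37 after the start and a short form at -33. Neither window of Dnajb1 held a heat shock element match, and its shown window held CCAAT at -151 and 12. ACGTG, the core letters of the hypoxia response element, occurs in 19.6% of all windows and was in 1 of the 2 windows of Hspd1, in 1 of the 2 of Dnajb1, and in Hsph1. That Dnajb1 window, its second (chr8:83608298-83608597), lies wholly inside the annotated gene (chr8:83608193-83612653). Its letters are therefore downstream of the first base of the annotated gene. These matches describe letters and are not evidence of binding.

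Values are FPKM, fragment counts scaled to transcript length and library total, which allows levels of different genes to be compared per length. Sums of all FPKM per library ran from 324121 to 370322, and 11556 to 11924 genes reached 1 FPKM. The absolute depth is unknown; relative depths, read from the steps of low values, spanned 1.33-fold. Of 10 microglia or macrophage markers 8 averaged at least 1 FPKM, with summed levels of 1053 to 1309 FPKM in control, 1245 to 1418 in hypoxia and 1310 to 1349 in ethanolamine libraries, while C1qa was listed at 0 in every library and Aif1 was at most 0.252 FPKM. Of 8 adipocyte markers only Lpl and Fabp4, which macrophages also express, passed 1 FPKM, and Adipoq, Plin1, Lep and Cfd were listed at 0 in all libraries. No neuron, astrocyte, oligodendrocyte, fibroblast or endothelial marker averaged 1 FPKM. Ribosomal RNA-like genes took 1.84% to 6.03% of summed FPKM in control, 6.31% to 9.80% in hypoxia and 5.46% to 8.81% in ethanolamine libraries; with them and mitochondrially encoded genes left out of the library totals, 8 of the 10 chaperones were called in hypoxia against control, 1 higher and 7 lower, beside 6970 of 11760 genes (2708 higher, 4262 lower).

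The first comparison asked what 24 h in 1% oxygen did to the chaperone transcripts. Mitochondrial Hspd1 fell by 53.9% and Hspe1 fell by 43.5% of their control means. Hspa8 fell by 34.7%, Hsph1 fell by 34.2%, Hsp90aa1 fell by 21.5%, Hsp90ab1 fell by 16.7% and Hsf1 fell by 48.3%. Dnajb1 was the exception and rose 1.52-fold. Genes averaging 1 FPKM or more over the libraries were tested with limma on log2(FPKM + 0.5), which admitted 8 of the 10, and 7 were lower and 1 higher in hypoxia at an adjusted p under 0.05. Over all 11802 genes tested, 59.4% passed (24.7% higher, 34.7% lower). The groups did not overlap for any of the 8, against 65.0% of all genes tested. The median log2 change of the 8 was -0.60, beside -0.09 over all genes tested. In bulk RNA, less transcript per cell and fewer cells carrying it cannot be told apart.

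**Figure D1:**
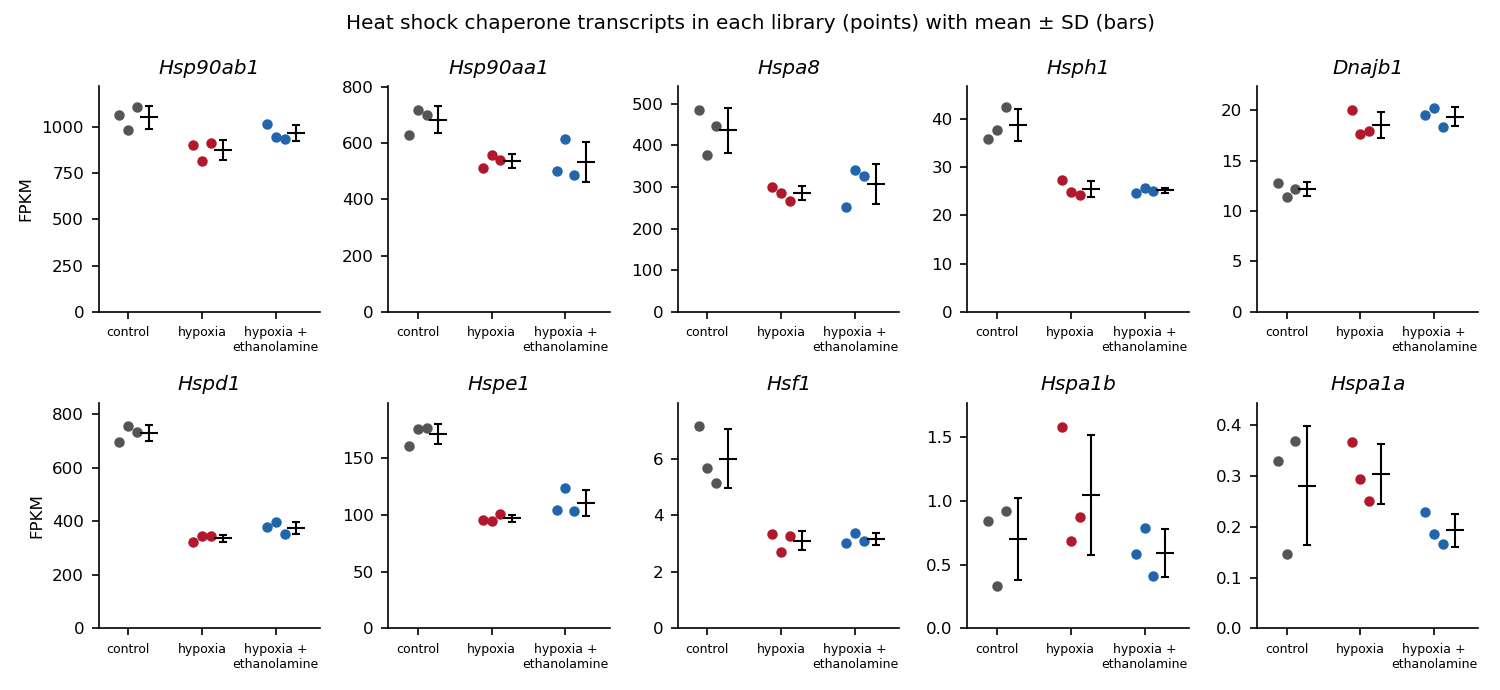
FPKM of the 10 chaperone genes (linear axes from 0, 1 panel per gene) in the 3 libraries of each group; points are libraries and bars are mean ± SD. Hspd1, Hspe1, Hspa8, Hsph1 and Hsf1 lie lower in both hypoxic groups than in control, Dnajb1 lies higher, and Hspa1a and Hspa1b scatter below 2 FPKM.

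Hspa8, which encodes the constitutive cytosolic HSC70 (ENSMUSG00000015656, chr9:40800984-40810087, GRCm38), stood at 485, 377 and 446 FPKM in the control libraries, 301, 286 and 268 FPKM in hypoxia, and 252, 341 and 327 FPKM with ethanolamine. Every hypoxic library was below every control library, and the ethanolamine libraries straddled the hypoxia ones. The means were 436 ± 54.6 FPKM in control and 285 ± 16.7 in hypoxia (SD, n = 3), a log2 change of -0.61 (SE 0.13, limma adjusted p = 0.00287). Hsph1, the HSP110 that exchanges nucleotide on HSP70 (ENSMUSG00000029657, chr5:149614287-149636376), read 36.0, 37.7 and 42.5 FPKM in control, 27.3, 24.8 and 24.3 FPKM in hypoxia, and 24.7, 25.8 and 25.2 FPKM with ethanolamine. All 6 hypoxic libraries of Hsph1 lay below the lowest control. Its log2 change was -0.59 (SE 0.07, limma adjusted p = 0.000114).

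The inducible HSP70 pair was scarce. Hspa1b read 0.847, 0.335 and 0.925 FPKM in control, 1.58, 0.686 and 0.871 FPKM in hypoxia, and 0.580, 0.789 and 0.409 FPKM with ethanolamine. Hspa1a read 0.329, 0.147 and 0.368 FPKM in control, 0.367, 0.294 and 0.251 FPKM in hypoxia, and 0.228, 0.185 and 0.165 FPKM with ethanolamine. Control and hypoxia overlapped for both genes, and hypoxia replicate 1 alone exceeded 1 FPKM of Hspa1b. The transcripts of the pair are 99.2% identical over 2201 aligned bases, so the split between them is uncertain. Their sum averaged 0.983 ± 0.438 FPKM in control libraries, 1.35 ± 0.522 in hypoxia libraries and 0.786 ± 0.201 in ethanolamine libraries (SD, n = 3), and the summed pair did not pass in hypoxia against control (log2 change 0.33, 95% interval -0.29 to 0.95, limma adjusted p = 0.327). The annotation places the antisense gene Gm20481 over Hspa1a, and that gene was listed at 0 in every library.

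Hsp90ab1 was the most abundant of the 10 genes in each group; over all 9 libraries it ranked 39 among all genes by mean FPKM, and Hsp90aa1 ranked 59. Hsp90ab1, the constitutive HSP90 beta (ENSMUSG00000023944, chr17:45567775-45573271), read 1065, 982 and 1108 FPKM in control, 904, 813 and 911 FPKM in hypoxia, and 1015, 948 and 934 FPKM with ethanolamine. The hypoxia libraries lay below all others, and the ethanolamine libraries reached into the control range. Its log2 change in hypoxia was -0.26 (SE 0.08, limma adjusted p = 0.0147). That call was lost without control replicate 3 (log2 change -0.22, adjusted p = 0.0665) and with median-of-ratios scaling (-0.19, adjusted p = 0.0599). Hsp90aa1, the inducible HSP90 alpha (ENSMUSG00000021270, chr12:110690605-110702728), read 628, 719 and 699 FPKM in control, 510, 557 and 539 FPKM in hypoxia, and 499, 615 and 487 FPKM with ethanolamine. All hypoxic libraries of both kinds were below the lowest control, by little for ethanolamine replicate 2. Its log2 change in hypoxia was -0.35 (SE 0.10, limma adjusted p = 0.0134). Without a filter on low values, limma gave Hsp90aa1 an adjusted p of 0.0509 and Hsp90ab1 0.103.

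Dnajb1, the HSP40 that delivers clients to cytosolic HSP70 and is itself a heat-inducible gene (ENSMUSG00000005483, chr8:83608193-83612653), moved the other way. It read 12.8, 11.4 and 12.2 FPKM in control, 20.0, 17.6 and 17.9 FPKM in hypoxia, and 19.6, 20.2 and 18.4 FPKM with ethanolamine. Every hypoxic library exceeded every control. The log2 change was 0.59 (SE 0.07, limma adjusted p = 0.000103), from 12.2 ± 0.698 to 18.5 ± 1.29 FPKM (SD, n = 3).

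Of the 8 genes tested, the chaperonin gene Hspd1 showed the largest fall. Hspd1 (ENSMUSG00000025980, chr1:55077835-55088243) read 698, 757 and 735 FPKM in control, 322, 343 and 345 FPKM in hypoxia, and 378, 398 and 352 FPKM with ethanolamine. The hypoxia libraries were below the ethanolamine libraries, and both were far below control. The hypoxia mean was 337 ± 13.0 FPKM against 730 ± 29.8 in control (SD, n = 3), which is 2.17-fold lower, with a log2 change of -1.12 (SE 0.07, limma adjusted p = 1.08e-06). Hspe1 (ENSMUSG00000073676, chr1:55088132-55091307) read 161, 176 and 176 FPKM in control, 95.4, 94.5 and 100.4 FPKM in hypoxia, and 104, 124 and 104 FPKM with ethanolamine. The 3 groups of Hspe1 did not overlap either, in the same order. Its log2 change in hypoxia was -0.82 (SE 0.08, limma adjusted p = 2.24e-05). The annotated genes overlap by 112 bases on opposite strands, and whether counting used strand is not given in the sources used here.

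Hsf1 itself was scarce (ENSMUSG00000022556, chr15:76477422-76501913). It read 7.17, 5.67 and 5.15 FPKM in control, 3.33, 2.70 and 3.26 FPKM in hypoxia, and 3.01, 3.39 and 3.08 FPKM with ethanolamine. Both hypoxic groups lay below all controls and overlapped each other. The hypoxia mean was 1.93-fold lower (log2 change -0.84, SE 0.12, limma adjusted p = 0.000316). HSF1 is regulated mainly as a protein, which these libraries do not measure.

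**Figure D2:**
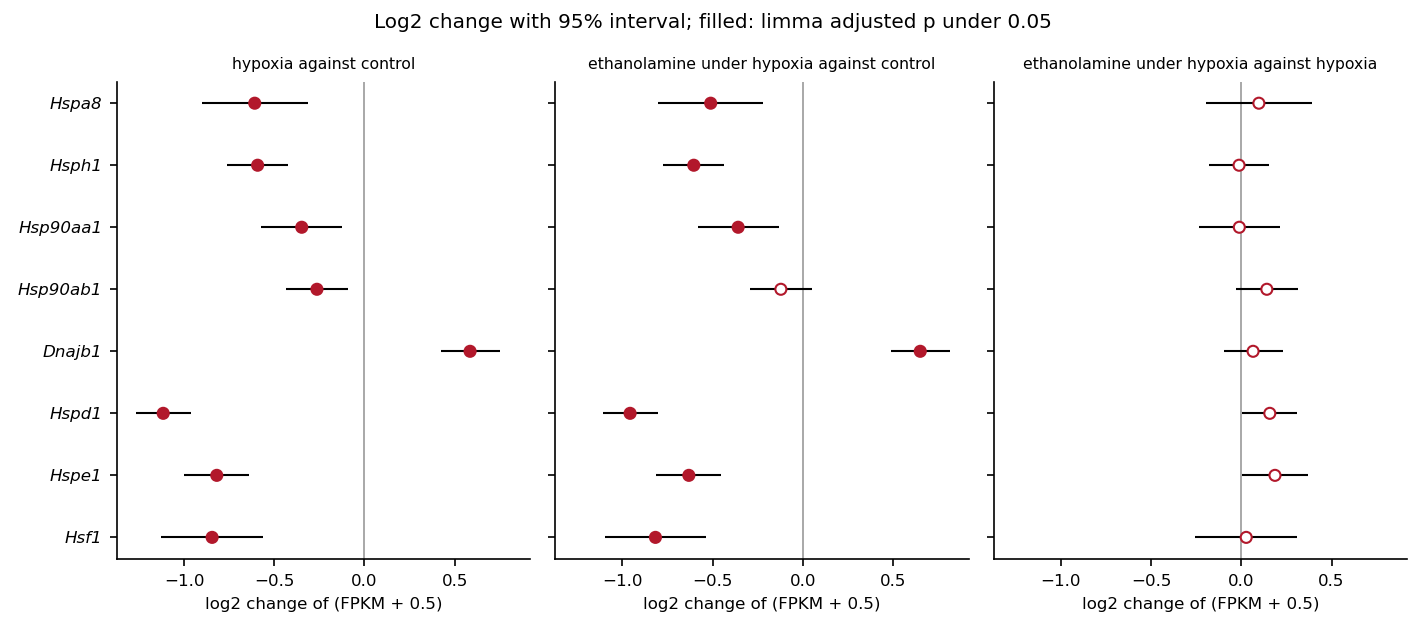
Log2 change of FPKM + 0.5 (points) with 95% intervals (bars) for the 8 tested chaperone genes in 3 comparisons; filled points passed at a limma adjusted p under 0.05. Hypoxia against control shows 7 genes below 0 and Dnajb1 at 0.59, whereas no gene is filled in ethanolamine against hypoxia.

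The order of levels within a group changed at 1 place between control and hypoxia. In control the order by mean was Hsp90ab1, Hspd1, Hsp90aa1, Hspa8, Hspe1, Hsph1, Dnajb1, Hsf1, Hspa1b and Hspa1a. Neighbouring ranges overlapped there for Hspd1 with Hsp90aa1 and for Hspa1b with Hspa1a. In both hypoxic groups Hsp90aa1 stood above Hspd1, and no neighbouring ranges overlapped. Within single libraries Hspd1 exceeded Hsp90aa1 in 3 of 3 controls, in 0 of 3 hypoxia libraries and in 0 of 3 ethanolamine libraries. Summed with near-identical copies (described below), Hsp90aa1 averaged 940 ± 51.7 FPKM in control and Hspd1 797 ± 33.9 (SD, n = 3). The sums thus had Hsp90aa1 above Hspd1 in control too, and the switch held only without copies. The 10 genes together took 0.954% ± 0.0288 of summed FPKM in control libraries, 0.628% ± 0.00998 in hypoxia libraries and 0.650% ± 0.0403 in ethanolamine libraries (SD, n = 3). Leaving out mitochondrially encoded and ribosomal RNA-like genes, the shares were 1.13%, 0.768% and 0.799%.

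Ratios within a library do not depend on how that library was scaled. With 3 libraries against 3, the smallest p an exact permutation test can give is 0.1, so none of the 9 ratio tests could pass 0.05. The Hspd1 to Hspe1 ratio was 4.33, 4.30 and 4.17 in control, 3.37, 3.63 and 3.43 in hypoxia, and 3.63, 3.21 and 3.40 with ethanolamine. All 6 hypoxic libraries had a lower ratio than any control, so Hspd1 fell by more than its partner. The log2 ratio differed by -0.29 between hypoxia and control (exact permutation test, two-sided, p = 0.1, adjusted p = 0.225 over the 9 tests). Summing both genes with their near-identical copies gave -0.21, again without overlap.

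The summed Hspa1a and Hspa1b made up a very small part of cytosolic HSP70 transcripts. Their ratio to Hspa8 was 0.00242, 0.00128 and 0.00290 in control, 0.00647, 0.00343 and 0.00419 in hypoxia, and 0.00320, 0.00286 and 0.00176 with ethanolamine. The hypoxia libraries exceeded all others. The log2 ratio differed by 1.13 between hypoxia and control (exact permutation test, two-sided, p = 0.1, adjusted p = 0.225) and by -0.84 between ethanolamine and hypoxia (exact permutation test, p = 0.1, adjusted p = 0.225). Hspa8, the lower part of the ratio, itself had a log2 change of -0.61 in hypoxia against control. The scarce summed pair had log2 changes of 0.33 and -0.50 in these comparisons, and neither passed. The Hsp90aa1 to Hsp90ab1 ratio was 0.590, 0.732 and 0.631 in control and 0.564, 0.686 and 0.591 in hypoxia. With ethanolamine it was 0.492, 0.649 and 0.522. Means were 0.651 ± 0.0734 in control, 0.614 ± 0.0637 in hypoxia and 0.554 ± 0.0833 with ethanolamine (SD, n = 3). Every pair of groups overlapped (exact permutation test p from 0.3 to 0.6). Within each replicate number the ratio was highest in control and lowest with ethanolamine, but the labels do not say that the numbers pair libraries.

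**Figure D3:**
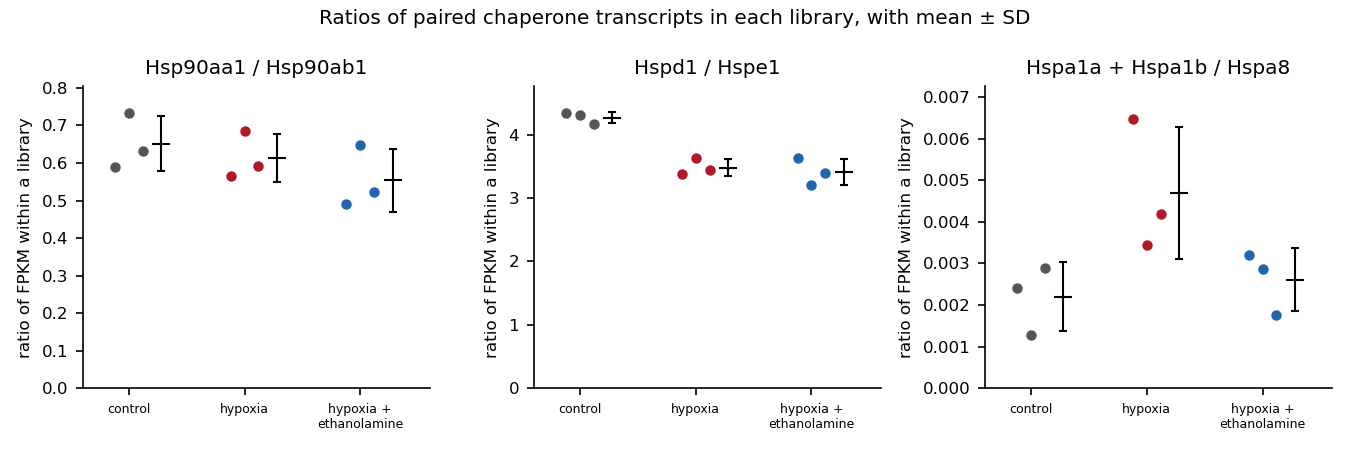
Ratio of FPKM within each library for Hsp90aa1 to Hsp90ab1, Hspd1 to Hspe1, and summed Hspa1a and Hspa1b to Hspa8; points are libraries, bars are mean ± SD, and axes start at 0. The Hspd1 to Hspe1 ratio falls from 4.27 in control to 3.48 in hypoxia and 3.41 with ethanolamine, while the HSP90 ratios overlap.

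The second comparison asked what ethanolamine added under hypoxia. None of the 8 tested genes passed (limma, adjusted p under 0.05), and 2 had an unadjusted p under 0.05; over all genes 0.568% passed, 67 of 11802, with 1730 at an unadjusted p under 0.05. The chaperonin pair came nearest. Hspd1 was 11.7% higher with ethanolamine (376 ± 23.3 against 337 ± 13.0 FPKM, log2 change 0.16, 95% interval 0.01 to 0.31, limma adjusted p = 0.324). Hspe1 was 14.2% higher (111 ± 11.7 against 96.8 ± 3.17 FPKM, log2 change 0.19, 95% interval 0.01 to 0.37, limma adjusted p = 0.324). Hsp90ab1 had a log2 change of 0.14 (95% interval -0.03 to 0.31, limma adjusted p = 0.434). Without ethanolamine replicate 2 the log2 change of Hspe1 was 0.10, and without hypoxia replicate 2 that of Hsp90ab1 was 0.09. With quantile normalization the log2 change of Hspd1 was 0.07 and that of Hsp90ab1 was -0.012. The hypoxia and ethanolamine libraries did not overlap for these 3 of the 8 tested genes, and the same held for 21.6% of all genes tested.

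For the remaining genes the intervals rest on the spread between libraries and are not adjusted for the number of genes. The log2 change lay between -0.18 and 0.16 for Hsph1, -0.24 and 0.21 for Hsp90aa1, -0.10 and 0.23 for Dnajb1, -0.20 and 0.39 for Hspa8, and -0.25 and 0.31 for Hsf1 (95% intervals). The low pair had lower means with ethanolamine, and its summed log2 change was -0.50 (95% interval -1.12 to 0.12, limma adjusted p = 0.440). The Hspa1a libraries did not overlap between the groups, although all 6 were under 0.4 FPKM.

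Ethanolamine libraries and controls, which differ in oxygen, time and ethanolamine, differed for 7 of the 8 tested genes (1 higher, 6 lower, limma adjusted p under 0.05); over all genes 58.5% passed (24.1% higher, 34.4% lower). The controls are the same 3 libraries as in the first comparison. Hspd1 had a log2 change of -0.96, Hsf1 of -0.82, Hspe1 of -0.63, Hsph1 of -0.60, Hspa8 of -0.51 and Hsp90aa1 of -0.36, and Dnajb1 rose by 0.65 (limma adjusted p from 3.35e-06 to 0.0119). Hsp90ab1 did not pass (log2 change -0.12, 95% interval -0.30 to 0.05, limma adjusted p = 0.200). Quantile normalization (-0.39, adjusted p = 0.000534) and rescaling without mitochondrial and ribosomal RNA-like genes (-0.20, adjusted p = 0.0200) brought it past the threshold.

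Of the 10 chaperone genes, 4 beside the Hspa1 pair have near-identical annotated copies, most of them processed pseudogenes, to which fragments may have been assigned. Copies were taken as transcripts at least 95% identical over at least 300 bases, a choice made after the values were seen. Hspa8 had 5, which summed to 254 FPKM over all libraries, equal to 74.2% of Hspa8 itself. The most abundant was Gm15459, 99.7% identical, with a control mean of 249 FPKM, a hypoxia mean of 146 and an ethanolamine mean of 159. Hsp90aa1 had 3 copies, led by Gm12346 at 189, 137 and 140 FPKM. Hspd1-ps3 stood at 67.5, 31.7 and 35.1 FPKM beside Hspd1, and AC117239.2 at 45.1, 19.0 and 22.3 FPKM beside Hspe1. No copy met these limits for Hsph1, Hsp90ab1, Dnajb1 or Hsf1.

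Summing each gene with its copies kept all 4 lower in hypoxia: Hspa8 at a log2 change of -0.70, Hsp90aa1 at -0.38, Hspd1 at -1.11 and Hspe1 at -0.90 (limma adjusted p from 1.17e-06 to 0.00536). Hspa8 held 55.4% of its summed FPKM in control and 59.0% in hypoxia, and Hspe1 held 79.1% and 83.7%. For Hspd1 the share was 91.5% and 91.4%. With copies included, the summed Hspa8 level was 786 ± 83.4 FPKM in control libraries, 483 ± 10.4 in hypoxia libraries and 522 ± 49.2 in ethanolamine libraries (SD, n = 3).

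**Figure D4:**
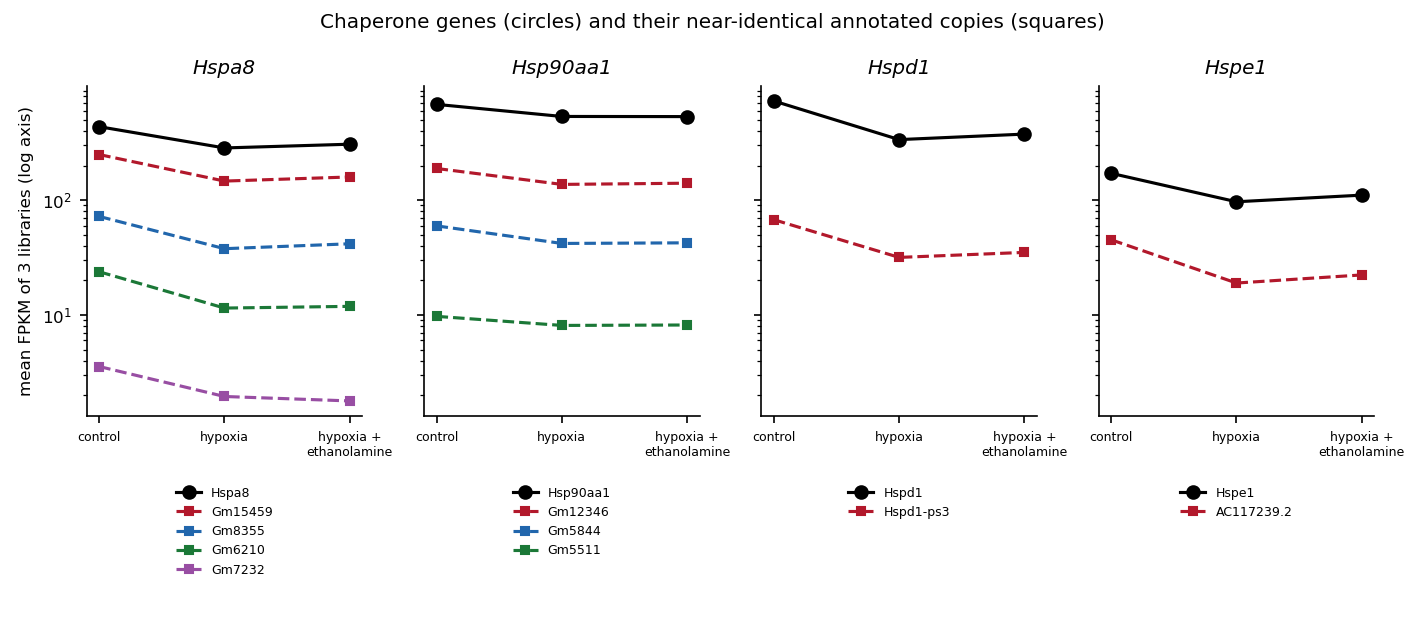
Mean FPKM of 3 libraries per group (log axis) for Hspa8, Hsp90aa1, Hspd1 and Hspe1 (circles) and their near-identical copies with a mean of at least 1 FPKM (squares). Each plotted copy has a lower mean in hypoxia than in control, like the gene it resembles; Gm15459 falls from 249 to 146 FPKM, and the difference of Gm5511 did not pass.

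Genes that work with these chaperones were described from lists of known partners. Of 20 HSP90 co-chaperones tested, 13 were lower in hypoxia, 1 was higher and 6 did not pass, with a median log2 change of -0.57; over all genes tested 34.7% were lower and 24.7% higher. Fkbp4, an immunophilin that serves steroid receptors, fell from 114 ± 6.88 to 40.9 ± 2.65 FPKM (SD, n = 3; log2 change -1.46, limma adjusted p = 3.48e-07). Ahsa1, which speeds the HSP90 ATPase, fell from 77.8 to 32.3 FPKM (-1.25), and the phosphatase gene Ppp5c from 29.7 to 13.8 FPKM (-1.08). Ahsa2 was the member that rose (0.48). For the HSP70 exchange factors and regulators, 5 of 8 were lower and 2 higher, beside the same all-gene shares. Hspbp1 (log2 change -1.01), Bag5 (-0.65) and Bag1 (-0.32) were lower. Bag2 rose by 0.25 and Bag3, a partner of small heat shock proteins, by 0.16 on the log2 scale (limma adjusted p = 0.0408). Rescaling without mitochondrial and ribosomal RNA-like genes left 1 higher.

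Of 18 other J-domain genes tested, 9 were lower, 2 higher and 7 did not pass (median -0.23); the total called was near the 59.4% called over all genes. Dnajc9, a histone co-chaperone, fell from 20.4 to 4.87 FPKM (log2 change -1.97). Dnajc8 (-0.84) and the ribosome-associated Dnajc2 (-0.83) were lower too. Dnajc5, which acts in exocytosis, rose by 0.91 and Dnajb6 by 0.27. Other HSP70 family genes gave 3 lower and 2 higher of 6, where 34.7% of all genes were lower and 24.7% higher. Among them Hspa4, an HSP110 relative of Hsph1, fell from 116 to 87.8 FPKM (-0.40), and Hspa4l rose from 8.59 to 11.5 FPKM (0.39, limma adjusted p = 0.000925). Hspa14, a ribosome-associated HSP70, fell by 0.92 on the log2 scale.

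The cytosolic chaperonin and its feeder prefoldin had no member that rose. Of 14 genes, 12 were lower and 2 did not pass (median log2 change -0.43), against 34.7% lower and 24.7% higher over all genes tested. Among them were the CCT subunit genes Cct6a at -0.67 and Cct7 at -0.58 and the prefoldin gene Pfdn2 at -0.59. Of the mitochondrial chaperones and proteases, 11 of 21 were lower, 4 higher and 6 not past the threshold (median -0.31), beside the same all-gene shares. Hspa9, the mitochondrial HSP70, fell from 228 ± 4.95 to 129.6 ± 3.57 FPKM (SD, n = 3; log2 change -0.81, limma adjusted p = 1.24e-06). The protease genes Htra2 (-1.35) and Clpp (-0.83) were lower too, whereas Afg3l2 (0.77), Lonp1 (0.53) and Clpx (0.49), all of them mitochondrial AAA+ proteins of protein quality control, were higher.

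Of the small heat shock protein list, 3 of 10 were tested. Hspb7 rose from 62.9 to 98.6 FPKM (log2 change 0.65, limma adjusted p = 8.65e-05), Hspb11 rose and Hspb6 fell; Hspb11 encodes an intraflagellar transport protein. Hspb1, the classic inducible small heat shock protein gene, averaged 0.0344 FPKM in control. Of 11 genes known to be induced by heat through HSF1, which overlap the lists above, 9 were tested: 5 were lower, 2 higher and 2 did not pass (median -0.43), where 34.7% of all genes tested were lower and 24.7% higher. Cacybp fell from 112 to 46.8 FPKM (-1.25), beside Fkbp4 and Ahsa1, and Hspa4l and Bag3 were the 2 higher. Serpinh1, the collagen chaperone gene, was listed at 0 in both groups. In the HSF family Hsf2 did not pass (-0.13), and Hsbp1, an HSF1-binding protein gene, rose by 0.28 (limma adjusted p = 0.0464), a call lost with the same rescaling.

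Of the endoplasmic reticulum counterparts, 3 of 15 were higher, 5 lower and 7 not past the threshold, near the all-gene shares of 24.7% higher and 34.7% lower; the median was -0.04, and 0.03 with median-of-ratios scaling. P4hb, protein disulfide isomerase, rose from 305 to 727 FPKM (log2 change 1.25, limma adjusted p = 6.77e-07), Dnajb9 by 0.80 and Sdf2l1 by 0.68. Manf (-0.54), Hyou1 (-0.38) and Dnajb11 (-0.29) were lower. With ethanolamine against hypoxia, no gene of any list passed.

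**Figure D5:**
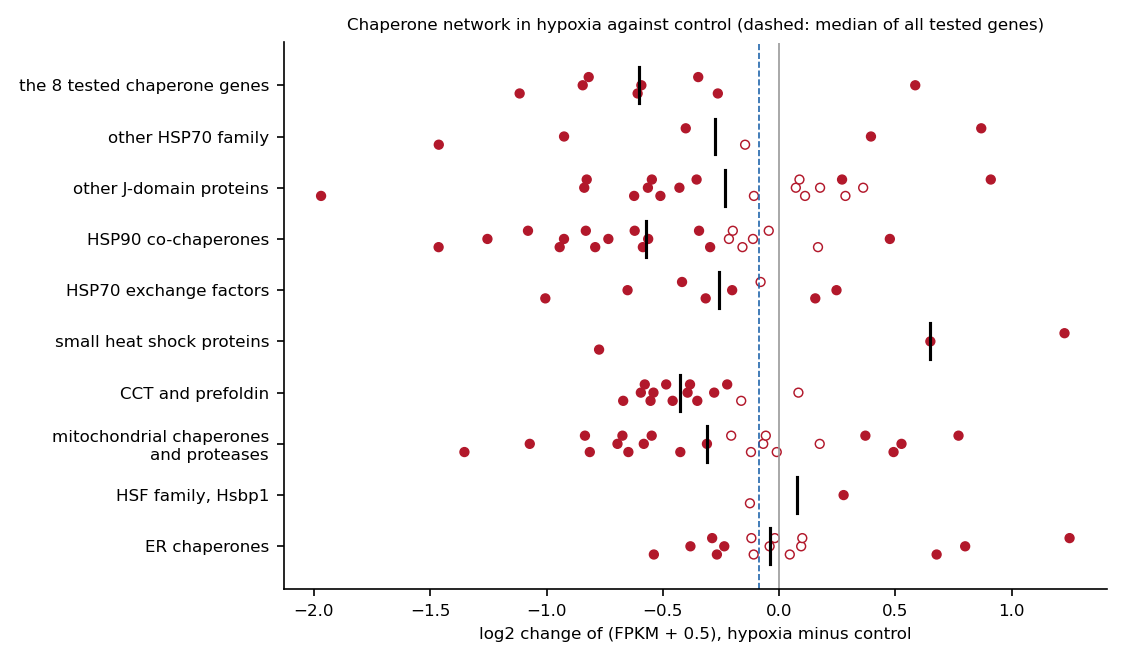
Log2 change of FPKM + 0.5, hypoxia minus control, for each tested gene of the chaperone lists (filled, limma adjusted p under 0.05); black bars are list medians and the dashed line is the median of all genes tested, -0.09. HSP90 co-chaperones (median -0.57) and CCT and prefoldin (-0.43) lie mostly left of 0, and endoplasmic reticulum chaperones (-0.04) on either side.

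Across the 9 libraries, log2 levels of Hspd1 and Hspe1 had a Pearson r of 0.984, Hspd1 and Dnajb1 of -0.950, and Hspa1a and Hspa1b of 0.819. These values share their libraries and group differences and are given as a description. Profiles were compared with 6567 other tested genes at 5 FPKM or more, leaving out symbols of predicted genes and clones. The Gm-named copies of Hspa8 and Hsp90aa1 could therefore not appear, whereas Hspd1-ps3 could. The profile most like that of Hspd1 was its own pseudogene Hspd1-ps3 (r = 0.999), then Anp32b, Cenpq and Cpsf2 (all r = 0.997). Anp32b went from 207 FPKM in control to 107 in hypoxia and 115 with ethanolamine. For Hsph1 the closest were Stmn1 (0.987), Fam98a (0.986), Cnot10 (0.984) and Chchd4 (0.982), and for Hspa8 they were Gsdmd (0.980), Ddx49 (0.969), Cebpd (0.964) and Mrps11 (0.964).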

How the data were processed

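RNA was measured in 9 BV2 libraries. Per the labels' protocols, cells grew in DMEM with 10% serum at 37 °C, and 1.3 µg of RNA entered a SMARTER mRNA kit. The authors deposited FPKM per gene; the submitters' processing notes name the build GRCm38 (mm10). The aligner, the counter and the treatment of reads that fit several places are not stated in these sources. FPKM divides by library total and gene length, so it gives no counting error. Genes averaging 1 FPKM or more (11802 of 27339 above 0) were tested with limma-trend (limma 3.58.1, R 4.3.3) on log2(FPKM + 0.5), which understates changes of low genes. All 9 libraries entered 1 fit of 3 group means, without covariates, two-sided, with Benjamini-Hochberg adjustment over all genes tested. Ratios used exact permutation tests (scipy 1.17.1). Positions came from GENCODE M21. All 10 chaperones were named; of each partner list, up to 3 highest and 3 lowest called genes averaging 5 FPKM or more were named, and Hspb6, Hspb11, Hspb1, Hsf2 and Serpinh1 were added after their values were seen. The chaperones and lists were chosen with earlier results of these data known. Pseudocount, filter, scaling, trend, replicate block, groups in the fit and left-out libraries were varied.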

Additional observations from a re-analysis of the deposited data

How the results depend on the processing

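In hypoxia against control, Hspa8, Hsph1, Dnajb1, Hspd1 and Hspe1 kept their direction and their call in all 21 alternatives run, and Hsf1 in all 20 in which it was tested. Several of these could not turn a direction. Changing the filter, trend, block or groups in the fit, summing the Hspa1 pair, or leaving out an ethanolamine library kept these log2 changes. Such settings could alter only the error or the adjusted p. Without a filter Hsp90aa1 reached an adjusted p of 0.0509 and Hsp90ab1 0.103, so 6 chaperones were called. With a mean of at least 5 FPKM, the genes called over the whole table numbered 4671 instead of 7011 in hypoxia against control, and 4603 instead of 6905 in ethanolamine against control, as fewer genes were tested. Ethanolamine against hypoxia called 67 genes, but 40 without a filter, 6 with only the 2 groups compared, and 0 to 38 when 1 library was left out. With the replicate number as a block it called 0 (1629 at an unadjusted p under 0.05); the block gave 8, 0 and 7 chaperones and 6901 and 6765 genes in the comparisons with control. Deviations of same-numbered libraries correlated between -0.117 and 0.109, and those of differently numbered libraries between -0.163 and 0.163. The numbers were therefore not taken to pair libraries, although the Hsp90aa1 to Hsp90ab1 ratio kept the same replicate order in each group. No chaperone was called in ethanolamine against hypoxia in any alternative, and the sign of some small changes turned there: Hsph1 (0.0070 with median-of-ratios scaling, -0.044 to 0.038 with 1 library left out), Hsp90aa1 (0.0088 with median-of-ratios scaling, -0.12 to 0.050 with 1 library left out), Hsp90ab1 (-0.012 with quantile normalization) and Hsf1 (-0.013 rescaled, -0.055 to 0.074 with 1 library left out). The log2 ratio of Hsp90aa1 to Hsp90ab1 in hypoxia against control ran from -0.17 to 0.0035 with 1 library left out (above 0 without control replicate 2), that of Hspd1 to Hspe1 in ethanolamine against hypoxia from -0.075 to 0.014 (above 0 without replicate 2 of either group), and that of the Hspa1 pair to Hspa8 in ethanolamine against control from -0.070 to 0.54 (below 0 without control replicate 2). The causes were not tested.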
